A study of Striga hermonthica with 6 samples.

Results

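Of the 25056 small RNA loci that were counted in *Striga hermonthica*, 2377 (9.49%) were steady over all 6 libraries of haustorium and leaf. A locus was counted as steady when it was not marked as *MIRNA*, had at least 10 reads in each library, and had a highest CPM (reads scaled to 1000000 counted reads of the library) of less than 4 times its lowest. The read floor was passed by 10154 loci, so that the steady loci were 23.4% of those that could be compared in every library. The remaining 7777 loci that passed the floor, 58 of them marked as *MIRNA*, are called the other loci below. The rule used the counts of all 6 libraries, so their evenness and their CPM are given as a description, with no test. What the rule did not use is their length, their place on the contigs and near genes, and, where a library was left out of the choice, the counts of that library.

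Plant small RNA comes from several kinds of loci. *MIRNA* genes give a hairpin that is cut into a short duplex, whereas most other loci give small interfering RNA from double-stranded RNA made along transposons, repeats, intergenic sequence or, at some loci, transcripts of genes. In plants the second kind makes up the greater number of loci. A count of reads per locus does not tell these kinds apart, and neither read length nor strand was analysed here.

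*S. hermonthica*, a root parasite of cereals, was of the Kibos ecotype and was grown for 45 days at 30 °C with 16 h of light on rice of the variety that the labels call KitaakeX. All 6 libraries share the ecotype, the host and the growth conditions, and the labels name no treatment. The groups are haustorium without a stage in the labels (replicates 1 and 3), haustorium at stage 6 (replicates 1 and 2) and leaf at stage 6 (replicates 1 and 2), where the haustorium is the organ that joins the parasite to the host root. Nothing states that replicates were separate plants, and rice reads that also match the parasite's assembly were not separated. No marker of haustorium or leaf can be read from counts of loci without a named product, so the tissue labels could not be checked. Counted reads per library ranged from 3031863 to 8381235, and 10 reads were 1.19 to 3.30 CPM. Of each stage 6 group, 1 library stood apart. The TMM factors (edgeR's scaling factors, which align the bulk of the loci) were 1.77 in stage 6 haustorium replicate 2 and 1.75 in leaf replicate 1, while the remaining 4 libraries had 0.609 to 0.978. Results that rest on these libraries are given on both scales or without them.

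The share of counted reads in steady loci ranged from 19.9% to 26.3% over the libraries. In the order replicate 1 and 3 for haustorium without a stage and replicate 1 and 2 for the stage 6 groups, which is kept throughout, the share was 25.7% and 22.5% in haustorium, 23.6% and 26.3% in stage 6 haustorium, and 26.3% and 19.9% in leaf. By group this was 24.1% ± 2.26, 24.9% ± 1.95 and 23.1% ± 4.52 (SD, n = 2 each), so the group means lie closer together than the libraries of a group. The exact 95% binomial intervals, which cover counting error only, were at most 0.0956 percentage points wide and are far narrower than these spreads. The other loci held 51.0% to 64.3% and the loci under the floor 14.8% to 22.7%. The highest share was 1.32 times the lowest for the steady loci and 1.26 times for the other loci. These are ratios of shares of unlike size, so they do not tell which kind was the more even. A set chosen for an even CPM is also held near an even share by its rule. The loci that were steady on the TMM scale held 13.1% to 41.1% of the counted reads, and those steady with DESeq2 size factors 12.2% to 40.7%. Leaf replicate 2 had the lowest share in steady loci of the 6 libraries and the highest in the other loci.

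**Figure D1:**
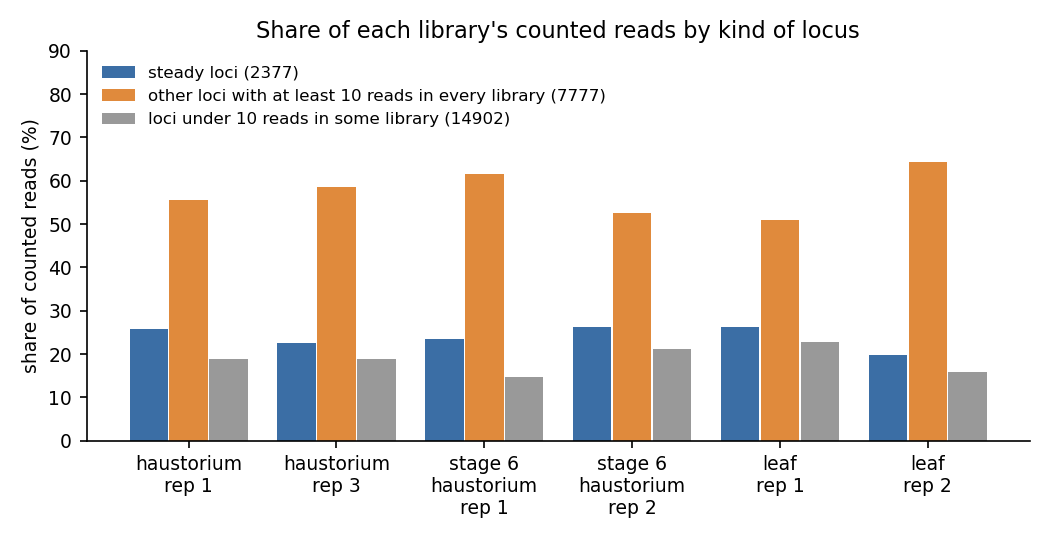
Bars give the share of counted reads (%) of each library in steady loci, in the other loci with at least 10 reads in every library, and in loci under 10 reads in some library. Each bar is 1 library with no replicate error. The steady loci hold 19.9% to 26.3% and the other loci 51.0% to 64.3%, a highest share of 1.32 and 1.26 times the lowest.

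A small number of loci carried much of this share. The 10 most abundant steady loci held 31.5% to 48.0% of all reads at steady loci, and without them the share of the library's counted reads ranged from 11.7% to 18.0%. In haustorium replicate 3 the 10 loci took 48.0% of the reads at steady loci, and in stage 6 haustorium replicate 2 they took 31.5%. By group they held 10.9% ± 0.163 of counted reads in haustorium without a stage, 8.23% ± 0.0721 in stage 6 haustorium and 7.91% ± 0.710 in leaf (SD, n = 2 each).

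In length the typical steady locus was like the other loci. The median was 431 nt against 432 nt, and 433 nt when *MIRNA* loci were left out of the other loci. The lengths differed more in some classes than in the median. They ran from 280 to 6163 nt, and their upper quartile was 551 nt against 521 nt. Of the loci of 300 to 399 nt, 13.5% (5 loci) were steady, against 25.8% at 400 to 419 nt, 22.0% at 420 to 449 nt, 19.6% at 450 to 499 nt, 23.0% at 500 to 799 nt, 27.2% at 800 to 1499 nt and 38.6% at 1500 nt and over. The last class held 103 steady loci with a median abundance of 491.6 CPM, against 302.5 CPM in its 164 other loci, so the long loci of both kinds were also the abundant ones. Below 300 nt only 1 of 69 loci was steady, but these 69 include the 58 *MIRNA* loci, which the rule leaves out.

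**Figure D2:**
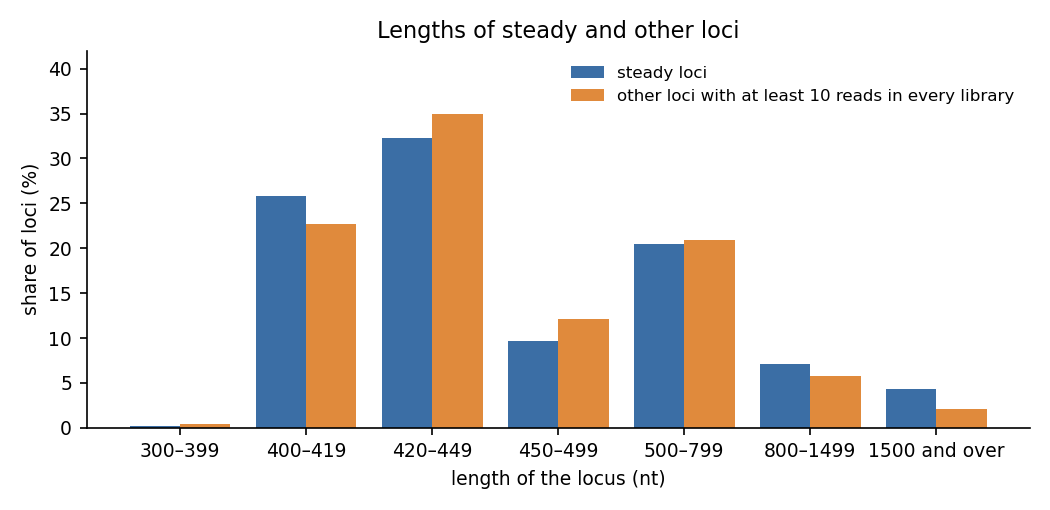
Bars give the share (%) of steady loci and of the other loci with at least 10 reads in every library in each class of locus length (nt), with loci under 300 nt left out. A larger share of steady than of other loci lies at 400 to 419 nt, with 25.9% against 22.7%. The same holds at 800 to 1499 nt, with 7.11% against 5.82%, and at 1500 nt and over, with 4.33% against 2.11%.

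The 3 longest steady loci were Cluster_13905 at 6163 nt, Cluster_13908 at 6156 nt and Cluster_6675 at 5556 nt. Cluster_6675, on contig CACSLK010014277.1 of the SHERM assembly from 4050556 to 4056111, lies entirely within the annotated gene SHERM_16518. Its abundance was 413 and 248 CPM in haustorium, 531 and 601 CPM in stage 6 haustorium, and 786 and 371 CPM in leaf. The lowest library was haustorium replicate 3 and the highest leaf replicate 1, and the groups overlap. The shortest were Cluster_10232 at 280 nt, Cluster_3121 at 331 nt and Cluster_13166 at 343 nt, with mean abundances of 6.94, 14.7 and 32.0 CPM. Cluster_3121, on contig CACSLK010007833.1 from 1330 to 1660, had 7.87 and 8.69 CPM in haustorium, 23.1 and 22.3 CPM in stage 6 haustorium, and 18.8 and 7.44 CPM in leaf. Its replicates agreed closely within the haustorium groups, but leaf replicate 2 fell with haustorium without a stage and leaf replicate 1 with the stage 6 haustorium.

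Mean abundance, taken over the 3 group means, ran from 3.10 to 17676 CPM at steady loci, with a median of 11.2 CPM against 11.7 CPM at the other loci. With CPM of library totals, steady loci were most frequent at the ends of the abundance range. When the loci over the floor were split by mean CPM into 5 bins of equal number, 28.9%, 21.3%, 20.5%, 21.4% and 25.0% of the loci were steady from the least to the most abundant bin. In abundance classes set after the values were seen, the steady loci were 25.1% of the loci under 10 CPM, 21.2% of those at 10 to 30 CPM, 21.6% at 30 to 100 CPM, 30.4% at 100 to 1000 CPM and 33.6% at 1000 CPM and over. On the TMM scale 65.8%, 61.2%, 48.5%, 54.2% and 30.4% of the loci in the same classes were steady. The most abundant class then had the lowest share, so its high share rests on scaling by library totals. The floor of 10 reads removes a locus of low abundance that falls in any library, which bears on the class under 10 CPM.

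The 42 steady loci of 1000 CPM and over were long. They held 12.98% to 17.9% of all counted reads, with a median length of 2116.5 nt against 483 nt in the 83 other loci of that class. Of the 42 loci, 16 (38.1%) overlap an annotated gene, against 22 (26.5%) of the 83. Of these 16 loci, 9 lie on a single stretch of contig, and without that stretch 7 of 32 steady loci (21.9%) and 17 of 77 other loci (22.1%) overlap a gene, so the difference rests on it. The lengths still differed without it, with medians of 1812.5 and 476 nt. A further 8 (19.0%) of the 42 lie on contigs without an annotated gene, against 2 (2.41%) of the 83, and 6 of the 42 start at the first base of their contig. At 100 to 1000 CPM the 162 steady loci had a median length of 1353 nt against 1014 nt, and 25.3% of them overlap a gene against 14.3% of the other loci. Contigs without a gene held 3.70% of the steady and 7.55% of the other loci of that class, the reverse of the class above. Below 30 CPM these differences were small, with gene overlap of 12.7% against 11.6% under 10 CPM and 10.2% in both kinds at 10 to 30 CPM.

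Of the 10 steady loci of highest mean CPM, 5 lie outside genes. Cluster_11977, the most abundant, covers 2665 nt from the first base of contig CACSLK010025212.1, which has no annotated gene. It had 24057 and 24012 CPM in haustorium, 16354 and 15422 CPM in stage 6 haustorium, and 14682 and 11527 CPM in leaf. The haustorium without a stage was highest in both replicates, at 24034 ± 32.2 CPM (SD, n = 2), and both leaf libraries were below all 4 haustorium libraries, at 13105 ± 2231 CPM (SD, n = 2). Its highest CPM was 2.09 times its lowest, but 4.70 times on the TMM scale.

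Cluster_997 is 1015 nt long, on contig CACSLK010001140.1 from 2678763 to 2679777, 472 nt from the gene SHERM_10197. Its abundance was 16533 and 15666 CPM in haustorium, 9970.1 and 10649 CPM in stage 6 haustorium, and 5548 and 15863 CPM in leaf. Leaf replicate 1 was the lowest of the 6 libraries while leaf replicate 2 was near haustorium without a stage, so the leaf libraries differed more than any other pair of a group at this locus. Its ratio of 2.98 became 8.11 on the TMM scale, where it was not steady.

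Cluster_22664, on contig CACSLK010032849.1 from 10240 to 13982, had 11992 and 8113 CPM in haustorium, 8620.4 and 6806 CPM in stage 6 haustorium, and 12609.9 and 5489.6 CPM in leaf. The leaf libraries were the highest and the lowest of the 6 there. Cluster_3877, which begins at the first base of contig CACSLK010010722.1 and is 2101 nt long, showed the same order within leaf, with 10301 and 2749.5 CPM. Its haustorium libraries were at 7494 and 4307 CPM without a stage and at 4285 and 7989 CPM at stage 6, and its ratio of 3.75 was 1.81 on the TMM scale. Neither contig holds an annotated gene.

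Cluster_16120 lies on contig CACSLK010027831.1 from 14778901 to 14780583 and overlaps the gene SHERM_26476 by 180 nt. It had 4524 and 3499 CPM in haustorium, 6390.5 and 10711 CPM in stage 6 haustorium, and 12206 and 3982 CPM in leaf. Like the bulk of the loci it was highest in stage 6 haustorium replicate 2 and leaf replicate 1, and its ratio of 3.49 became 1.66 on the TMM scale. Cluster_5963, also among these 10 loci, is described with the limit of the rule, and the remaining 4, Cluster_13886, Cluster_13904, Cluster_13905 and Cluster_13908, come from a single stretch of contig and are described with it.

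The limit of 4 did not fall in a gap between 2 kinds of loci. Of the steady loci, 7 had a ratio of highest to lowest CPM under 1.5, 68 of 1.5 to 2, 229 of 2 to 2.5, 498 of 2.5 to 3, 732 of 3 to 3.5 and 843 of 3.5 to 4. The numbers thus rose up to the limit, and beyond it 2973 of the other loci not marked as *MIRNA* had a ratio of 4 to 6, 2871 of 6 to 10, 1665 of 10 to 30 and 210 of 30 or more. Just inside the limit were Cluster_5963 at 3.9992, Cluster_2103 at 3.9974 and Cluster_4206 at 3.9971. Just outside were Cluster_573 at 4.0001, Cluster_6976 at 4.0016 and Cluster_9264 at 4.0017. Cluster_5963, a locus of 2533 nt from position 500 of contig CACSLK010013586.1, had 11140 and 3333 CPM in haustorium, 7334 and 13328 CPM in stage 6 haustorium, and 7365 and 5273 CPM in leaf. Cluster_573 had 13.6 and 9.28 CPM in haustorium, 12.9 and 32.6 CPM in stage 6 haustorium, and 18.8 and 8.16 CPM in leaf. Both were highest in stage 6 haustorium replicate 2.

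The smallest ratio belonged to Cluster_9345, a locus of 417 nt on contig CACSLK010020742.1 from 4906817 to 4907233 that overlaps the gene SHERM_18710 by 25 nt. It had 34 and 29 reads in haustorium, 15 and 34 in stage 6 haustorium, and 36 and 36 in leaf, which is 4.06 to 4.95 CPM and a ratio of 1.22. Its chi-square per degree of freedom was 0.227, where sampling of reads alone gives about 1. The locus was picked for its small ratio in the same counts and has few reads, so nothing is read from this value. Cluster_10570 rested on more reads. This locus of 1193 nt, on contig CACSLK010023429.1 from 171 to 1363, had 71.2 and 77.0 CPM in haustorium, 67.3 and 67.0 CPM in stage 6 haustorium, and 84.1 and 76.7 CPM in leaf, from 204 to 639 reads, at a ratio of 1.25. The other three were Cluster_22479 at 1.41, Cluster_11651 at 1.43 and Cluster_12463 at 1.45, with mean abundances of 27.3, 12.6 and 27.6 CPM. All 5 had larger ratios on the TMM scale, from 2.54 to 3.62, and all 5 stayed under 4.

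Steadiness in CPM did not mean agreement within counting error. The chi-square of the 6 counts per degree of freedom had a median of 16.5 at steady loci and 41.3 at the other loci, where sampling of reads alone gives about 1. Among the 42 steady loci of 1000 CPM and over the median was 1901, since deep counts show small differences. At 16 of the 2377 steady loci (0.673%) the value was below 2.21, the upper 95% bound of sampling noise. This held at 0 of the 7777 other loci, and the rule used the same counts. Of the 16 loci, 15 were under 10 CPM, where counts are low and the bound is easier to meet. The limit of 4 was thus a limit on size and not on agreement within counting error.

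The variation that remained had a shared order of the libraries. Stage 6 haustorium replicate 2 or leaf replicate 1 was the highest library at 1934 (81.4%) of the steady loci and at 85.6% of the other loci. Haustorium replicate 3 or leaf replicate 2 was the lowest at 1675 (70.5%) and at 72.0%. The median deviation of a library from the locus mean, in log2 CPM, was near 0 and −0.53 in haustorium, −0.11 and 0.66 in stage 6 haustorium, and 0.54 and −0.48 in leaf. From the lowest to the highest library this was a range of 1.19 at steady loci and 1.93 at the other loci. The order is the one of the TMM factors and crosses the groups.

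The order was weaker at the abundant steady loci. In the class of 1000 CPM and over, the median deviations spanned 0.36 at steady loci, from −0.18 in haustorium replicate 3 to 0.18 in leaf replicate 1. Stage 6 haustorium replicate 2 or leaf replicate 1 was still the highest at 22 of the 42 loci (52.4%), and haustorium replicate 3 or leaf replicate 2 the lowest at 23 (54.8%). Stage 6 haustorium replicate 2 was the highest at 15 of the 42 and the lowest at 12, so its median of −0.04 lies between loci that moved in opposite directions. Without the stretch of contig described last, which holds 10 of the 42, the medians spanned 0.90, from −0.43 in haustorium replicate 3 to 0.47 in stage 6 haustorium replicate 2. At the 83 other loci of the class they spanned 1.86 in the reverse direction, with −0.87 in stage 6 haustorium replicate 2 and −1.17 in leaf replicate 1 against 0.48 in haustorium replicate 3 and 0.69 in leaf replicate 2. These 83 loci held 36.0% and 43.1% of all counted reads in haustorium, 40.0% and 19.3% in stage 6 haustorium, and 19.5% and 45.6% in leaf. The 42 steady loci of that class held 17.9% and 16.9%, 15.3% and 14.7%, and 15.2% and 12.98% in the same libraries. Because CPM divides by a total in which the abundant loci weigh heavily, a change in them and a change in the bulk of loci cannot be told apart from these counts.

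**Figure D3:**
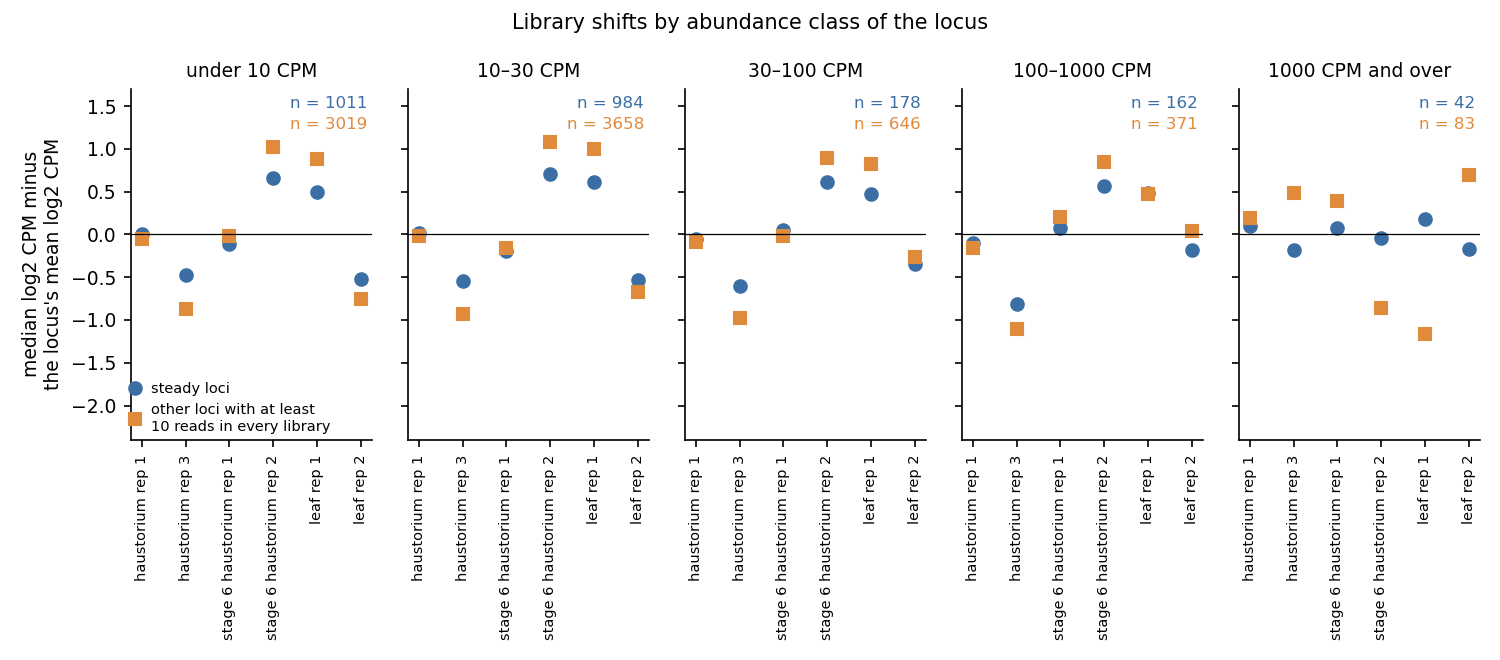
For each abundance class of loci (panels, by mean CPM), points give the median over loci of a library's log2 CPM minus the locus's mean log2 CPM, for steady loci (circles) and the other loci with at least 10 reads in every library (squares), with the number of loci in each panel. In the 4 lower classes both kinds are high in stage 6 haustorium replicate 2 and leaf replicate 1. At 1000 CPM and over the steady loci span 0.36, and the other loci span 1.86 in the reverse direction.

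The number of steady loci depended on the scale. On the TMM scale 6222 loci (61.3% of those over the floor) had a highest value under 4 times the lowest, and with DESeq2 size factors 6247 (61.5%). Of the 2377 steady loci, 1987 (83.6%) were also steady on the TMM scale, where they made up 31.9% of the 6222. Retention fell in the most abundant class. It was 82.6% under 10 CPM, 87.5% at 10 to 30 CPM, 77.0% at 30 to 100 CPM and 81.5% at 100 to 1000 CPM, but 22 of 42 loci (52.4%) at 1000 CPM and over. Without stage 6 haustorium replicate 2 and leaf replicate 1, a choice added after the data were seen, 7485 loci (67.4% of those over the floor) were steady in the remaining 4 libraries, and they held 67.4% to 69.8% of the counted reads.

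Leaving a library out of the choice showed how far the number of steady loci depended on that library. With 5 libraries, between 2821 (without haustorium replicate 1) and 4467 loci (without haustorium replicate 3) met the rule. Of these, 84.3% and 53.2% still met it when haustorium replicates 1 and 3 were added back. For stage 6 haustorium replicates 1 and 2 this was 71.3% and 57.5%, and for leaf replicates 1 and 2 it was 65.8% and 67.9%. The loci kept were the 2377 steady loci each time, so these shares restate how many loci the 5 libraries chose. Among loci of 1000 CPM and over the shares, again of the same 42 loci kept, were 73.7% to 100%. The low values were again in stage 6 haustorium replicate 2 and haustorium replicate 3.

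A reading of the left-out library itself, which the choice had not used, needs the loci that were not chosen beside it. A measure set after the data were seen asked how often the left-out library lay within 0.5 to 2 times the median of the other 5 libraries. Of the loci chosen on 5 libraries, 77.7% and 43.5% did so for the haustorium libraries without a stage, 68.6% and 38.6% for stage 6 haustorium, and 48.0% and 58.1% for leaf. Loci with a ratio of 4 to 8 in the same 5 libraries reached 73.4% and 44.5%, 64.3% and 37.5%, and 44.5% and 60.0%. The chosen loci thus exceeded those just outside the limit by −1.89 to 4.31 percentage points, and in 2 of the 6 libraries (haustorium replicate 3 and leaf replicate 2) they were lower. Loci with a ratio of 8 and over reached 62.3% and 41.1%, 54.9% and 37.7%, and 39.9% and 53.8%, below the chosen loci in each of the 6 libraries. In stage 6 haustorium replicate 2, 88.0% of the chosen loci lay above the median of the other libraries, and in haustorium replicate 3 only 10.5% did.

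On the TMM scale the chosen loci were further ahead. Those chosen on 5 libraries lay within 0.5 to 2 times the median in the left-out library in 70.2% to 85.1% of cases, against 55.8% to 68.9% for a ratio of 4 to 8 and 32.9% to 56.7% for a ratio of 8 and over. The chosen loci were ahead of the band of 4 to 8 in each of the 6 libraries, by 12.3 to 17.5 percentage points. The TMM factors themselves were computed from all 6 libraries, so the left-out library is not fully separate there.

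**Figure D4:**
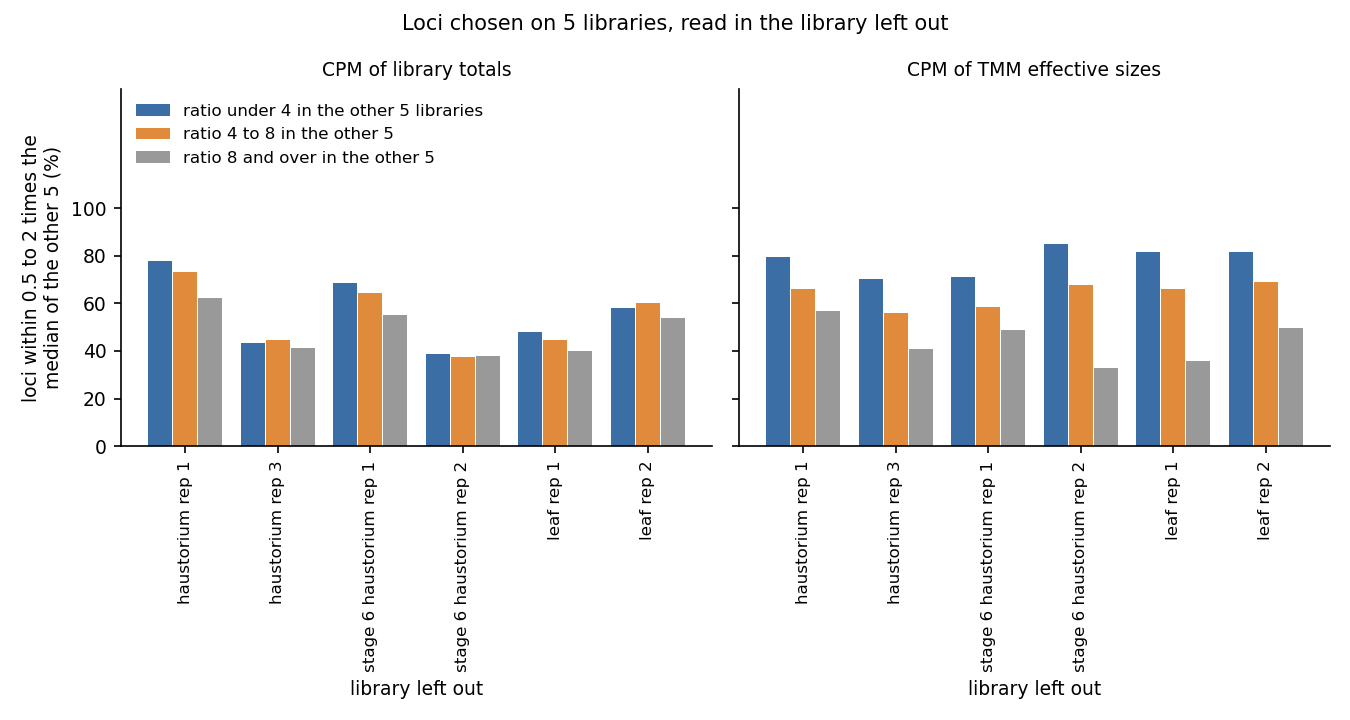
Each group of bars is 1 library left out, and bars give the share of loci (%) whose value in that library lies within 0.5 to 2 times the median of the other 5, for loci with a ratio under 4, of 4 to 8, and of 8 and over in those 5. With CPM of library totals (left) the first and second bars differ by at most 4.31 percentage points. With TMM effective sizes (right) they differ by 12.3 to 17.5.

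Few steady loci had leaf and haustorium apart. Both leaf libraries lay above all 4 haustorium libraries at 17 of the 2377 steady loci (0.715%), where 0.63% of all loci over the floor did so, and below them at 46 (1.94%), where 1.85% did so. The rule used these values and nothing is read from the counts. On the TMM scale the counts were 47 (1.98%) and 158 (6.65%), where 3.47% and 5.61% of all loci over the floor were above and below, and of the 17 and 46 loci only 2 and 11 were among them. Against the stage 6 haustorium libraries alone, leaf was above at 56 steady loci (2.36%) and below at 272 (11.4%), where 1.83% and 10.3% of all loci over the floor were. On the TMM scale this became 236 (9.93%) and 287 (12.1%), where 8.35% and 16.5% of all loci over the floor were. The mean of leaf was higher than the mean of haustorium at 1285 (54.1%) of the steady loci and at 58.1% of the other loci, with median differences of 0.03 and 0.14 in log2 CPM. In bulk tissue, fewer cells of a type and less small RNA per cell cannot be told apart.

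Among the loci whose ranges did not overlap between tissues, those of highest mean CPM were Cluster_11977, described above, Cluster_15163 and Cluster_21231. Cluster_15163, a locus of 473 nt on contig CACSLK010027789.1 from 528008 to 528480 and 858 nt from the gene SHERM_25215, had 4683 and 4364 CPM in haustorium, 3505 and 2925 CPM in stage 6 haustorium, and 5219 and 5186 CPM in leaf. The leaf replicates agreed at 5202 ± 23.5 CPM (SD, n = 2), against 3869 ± 802.2 CPM (SD, n = 4) over the haustorium libraries. Its ratio was 1.78, and 4.84 on the TMM scale. Cluster_21231, of 491 nt on contig CACSLK010030875.1 from 9696861 to 9697351, had 153 and 266 CPM in haustorium, 218 and 194 CPM in stage 6 haustorium, and 294 and 475 CPM in leaf. Leaf was higher there, but leaf replicate 1 was closer to the highest haustorium library than to leaf replicate 2. On the TMM scale the tissues overlap at all 3 of these loci. Cluster_11977, for instance, then had 8391 and 17770.4 CPM in leaf against 8699 to 39417 CPM in haustorium.

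Over all steady loci, libraries of the same group differed by as much as libraries of different groups. The absolute difference in log2 CPM had a median of 0.85 over the 3 pairs within groups and 0.76 over the 12 pairs between groups. The between-group difference was the larger at 29.4% of the steady loci and at 32.3% of the other loci. At the 42 steady loci of 1000 CPM and over the medians were 0.65 within and 0.69 between groups, and the between-group difference was the larger at 54.8%. The closest pairs crossed the groups, with a median of 0.39 between haustorium replicate 3 and leaf replicate 2 and 0.42 between stage 6 haustorium replicate 2 and leaf replicate 1, whereas the leaf libraries differed by 1.06. At the other loci the medians were 1.36 within and 1.22 between groups. On the TMM scale the steady loci had 0.58 within and 0.55 between groups. The between-group difference was the larger at 34.1% of them, and at 41.4% of the other loci. The 42 loci of 1000 CPM and over then had 0.88 within and 0.83 between groups, with the between-group difference the larger at 31.0%, so their order depended on the scale.

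Steady loci were spread over the assembly. They lie on 183 contigs, of 500 contigs with a locus over the floor, and 95 of these contigs hold a single one. The contigs with the most were CACSLK010030184.1 with 152 of 587 loci over the floor (25.9%), CACSLK010027752.1 with 127 of 499 (25.5%) and CACSLK010034598.1 with 119 of 493 (24.1%). The 10 contigs with the most steady loci held 40.1% of the steady loci and 37.9% of the other loci. Ranking contigs by steady loci favours the first share, so nothing is read from the difference. Over the 53 contigs with at least 50 loci over the floor, the steady share had a median of 22.8%, from 12.1% on CACSLK010015718.1 (7 of 58) to 34.1% on CACSLK010011299.1 (73 of 214).

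Neighbours were only slightly more alike than loci in general. Where the next locus over the floor lay within 1000 nt, 26.5% of the neighbours of a steady locus were steady, against 23.2% of the neighbours of the other loci. Most steady loci, 1849 of them, had no steady locus directly before or after them in the order of all loci. Of all loci 9.49% were steady. So low a share leaves most steady loci alone in any case, and nothing is read from the count. Of the runs of adjacent steady loci, 209 had 2 members, 31 had 3, 3 had 4 and 1 had 5. The longest run, Cluster_19669 to Cluster_19673, spans 26616 nt of contig CACSLK010030184.1 from 3652123 to 3678738, and 3 of its members lie within the genes SHERM_03330 and SHERM_03331. Its loci were of low to moderate abundance, from 4.35 CPM at Cluster_19673 to 30.9 CPM at Cluster_19671. The most compact run of 4, Cluster_12460 to Cluster_12463 on CACSLK010026072.1, covers 2191 nt from 7838350 to 7840540 and ends with Cluster_12463, one of the 5 loci of smallest ratio.

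With CPM of library totals, steady loci lay in and near genes slightly more often than the other loci. An annotated gene was overlapped by 311 of them (13.1%, exact 95% binomial interval 11.8% to 14.5%) and by 894 of the other loci (11.5%, 10.8% to 12.2%). Of these, 202 and 643 lay entirely within the gene. Between genes, the median distance to the nearest gene was 1871 nt for steady loci and 2260 nt for the other loci, and 29.3% and 26.4% lay within 1000 nt of a gene without overlapping it. Contigs without an annotated gene held 63 (2.65%) of the steady loci and 264 (3.39%) of the others. The intervals of gene overlap meet. They treat loci as independent, which loci on 1 contig are not, so they cannot decide whether the kinds differ. The table of genes gives locus tags without functions, so no role can be named for these genes.

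A single stretch of contig held 10 of the 42 steady loci of 1000 CPM and over. It was singled out after the values were seen and runs from Cluster_13884 to Cluster_13913 on CACSLK010027752.1, from 6837227 to 7038943, which is 201717 nt with 30 loci. Its 10 steady loci are 2132 to 6163 nt long, have mean abundances of 1636 to 11239 CPM, and overlap an annotated gene in 9 cases, each with part of the locus only. The stretch also holds 10 other loci over the floor, of which 8 exceed 500 CPM, and 10 loci under the floor with at most 29.4 CPM. Between the first and the last steady locus lie 7 of these other loci, 6 of them over 500 CPM, and 9 loci under the floor. The 10 steady loci together held 5.63% and 7.02% of counted reads in haustorium, 5.02% and 2.87% in stage 6 haustorium, and 3.90% and 4.34% in leaf. At these 10 loci together, stage 6 haustorium replicate 2 was thus lowest and the haustorium without a stage highest. All 30 loci of the stretch held 9.47% and 13.5% in haustorium, 9.48% and 3.81% in stage 6 haustorium, and 7.82% and 8.46% in leaf.

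Cluster_13908, on this stretch from 7007267 to 7013422, overlaps SHERM_23666 by 600 nt. It had 11582 and 19916 CPM in haustorium, 8491 and 8679.9 CPM in stage 6 haustorium, and 6229 and 12539 CPM in leaf, with replicates at stage 6 in haustorium close together (8585 ± 133.7 CPM, SD, n = 2). Cluster_13886 from 6857707 to 6861152, which overlaps SHERM_23651 by 423 nt, had 9942 and 9293 CPM in haustorium, 6194 and 3915 CPM in stage 6 haustorium, and 6530.5 and 5962 CPM in leaf. Both haustorium libraries without a stage were above the other 4 there. Cluster_13904 from 6981019 to 6984133 overlaps SHERM_23661 by 696 nt and had 6889.7 and 11473 CPM, 8195 and 2912 CPM, and 4975 and 6341 CPM in the same order of groups. Cluster_13905 from 6987231 to 6993393 overlaps 2 genes, SHERM_23662 by 855 nt, and had 6282 and 8517 CPM, 5999 and 2440.1 CPM, and 3714 and 4399 CPM.

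The stretch differed from the bulk of steady loci in the order of its libraries. Stage 6 haustorium replicate 2, the highest library at 46.7% of all steady loci, was the lowest at 7 of the 10 here and at 7 of the 8 other loci over 500 CPM. Those 8 had ratios of 4.10 to 29.7. On the TMM scale the ratios of the 10 steady loci were 2.56 to 11.5, and only 1 of them, Cluster_13899, stayed under 4, so their steadiness rests on scaling by library totals.

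**Figure D5:**
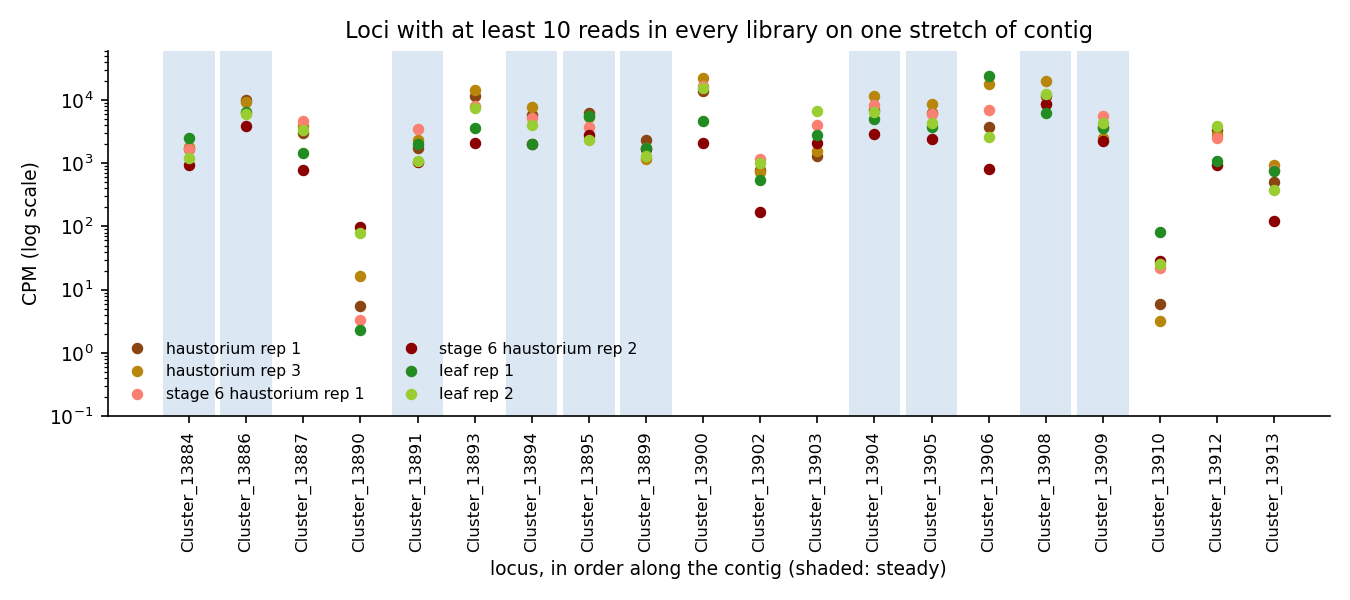
Points give the CPM (log scale) of each library at the 20 loci with at least 10 reads in every library on the stretch from Cluster_13884 to Cluster_13913, in order along the contig, with the 10 steady loci shaded. Shaded loci have mean abundances of 1636 to 11239 CPM. Stage 6 haustorium replicate 2 is the lowest point at 7 of the shaded loci.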

How the data were processed

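Small RNA of *S. hermonthica* was sequenced in 6 libraries. After adapter trimming, the authors found loci with ShortStack 4.0.4 at its defaults against the SHERM assembly and deposited raw read counts per locus, with coordinates and a *MIRNA* mark. How reads with several matches were placed was not given in the sources used here, so loci in repeats may share reads. Reads outside the loci were not analysed here.

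Counts were divided by the library's counted reads and scaled to 1000000 (CPM). The members, lists and named loci were chosen with earlier results of these data known. Named were the 10 steady loci of highest mean CPM (5 overlapping a gene), the 5 of smallest ratio, the 3 longest and shortest, the 3 nearest the limit on each side, the 3 contigs with most members and the 3 most abundant with leaf and haustorium apart. No test was run, since the rule used all 6 libraries. Alternatives were read floors of 5, 20 and 50, limits of 2, 3 and 6, TMM (edgeR 4.0.16), DESeq2 1.42.0 size factors, totals without the 10 most abundant loci, thinning to the smallest library, and leaving out each library. The choice of loci was tested on simulated data. Contigs and coordinates were used to place loci against 29520 annotated genes of the SHERM assembly, and no genome sequence was read. Scripts ran in R 4.3.3 and Python 3.11.15 with numpy 2.4.6, pandas 2.3.3, matplotlib 3.10.9 and scipy 1.17.1. Of the paper and the series text, the former names a NextSeq2000 and the latter another Illumina sequencer.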

Additional observations from a re-analysis of the deposited data

How the results depend on the processing

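The number of steady loci, 2377 as reported, was 2480 and 1696 at floors of 5 and 20 reads, 626 at 50 reads, 75, 802 and 5350 at limits of 2, 3 and 6, 6222 with TMM, 6247 with DESeq2 size factors and 7485 without stage 6 haustorium replicate 2 and leaf replicate 1, and 2821 to 4467 with 1 library left out. Their share of counted reads, 24.1% as the mean of the groups, was 1.16%, 11.7% and 43.4% at limits of 2, 3 and 6 and 68.3% without both of those libraries, and 24.4% to 35.4% with 1 library left out. Their median length was 468.5 nt and 694.5 nt at floors of 20 and 50 reads, 441 nt at a limit of 2 and 443 nt after thinning, and 425 to 430 nt with 1 library left out. Their median abundance was 10.7, 14.9 and 39.3 CPM at floors of 5, 20 and 50 reads, 12.4 CPM at a limit of 2, 9.96 CPM with TMM, 9.95 CPM with DESeq2, 13.4 CPM with totals without the 10 most abundant loci, 12.9 CPM after thinning, 7.72 CPM without both libraries, and 9.05 to 11.9 CPM with 1 library left out. Gene overlap was 17.3% at a floor of 50, 16.0% at a limit of 3 and 10.5% where at least 50% of the locus had to lie inside the gene, and 12.4% to 13.3% with 1 library left out. The median share kept when a library was added back, 66.9%, was 50.4% at a limit of 3 and 88.3% with TMM. Leaf lay above at 17 and below at 46 loci, which became 47 and 158 with TMM (where 3.47% and 5.61% of all loci over the floor did so, and 1.98% and 6.65% of the steady loci) and 56 and 272 against stage 6 haustorium alone (1.83% and 10.3% of all loci, 2.36% and 11.4% of the steady loci). The between-group less the within-group difference was −0.09 in log2, and −0.030 with TMM. Of the 26 named loci, 13 crossed the limit of 4 with TMM and 14 with DESeq2. The cause of these changes was not tested. No paired analysis was possible because the results come from no test. The 14902 loci under the floor were left out by the rule, and groups of 2 libraries give no more than a range.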
